A study of Drosophila melanogaster with 15 samples.

Results

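The 31 autophagy genes described here were picked by FlyBase symbol from the 17509 genes of a deposited table of TPM, and all 31 were found in it. The rule takes genes by their place in the pathway and uses no measured value, although earlier results of these data were known when the list was drawn up. They hold the *Atg* genes, the Vps34 lipid kinase complex, the cargo receptor gene *ref(2)P*, the transcription factor gene *Mitf*, the genes that fuse autophagosomes with lysosomes, and the mitophagy genes *Pink1* and *park*. RNA came from astrocytes of adult *Drosophila* brains in 3 groups of 5 biological replicates, which were uninjured flies, flies 4 hr after TBI and flies 24 hr after TBI. Flies of all 3 groups were labelled WT and carried *R86E01-Gal4* with *UAS-Redstinger*, so that the promoter fragment of the driver decided which cells became red and were sorted. Flies were collected for injury at 3 days after eclosion, and injury was given with the HIT device, in which a spring throws a vial of flies against a pad. About 50 brains were pooled for each group, and the sources leave unclear whether that counts a replicate or a condition. From a pool 1600 red cells were sorted, so every value is an average over cells of several animals. TPM is the abundance of a gene's reads per transcript length, scaled to a common total in each sample. It permits levels to be compared between genes, but it keeps no read depth, so errors come from the replicates alone.

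Autophagy delivers cytoplasm, protein aggregates and organelles to the lysosome. A kinase complex around Atg1 starts it, Atg9 vesicles and the lipid carrier Atg2 supply membrane, and the Vps34 complex marks that membrane with a phosphorylated lipid. A ubiquitin-like conjugation system then attaches Atg8 to the growing membrane, receptors such as Ref(2)P tie cargo to Atg8, and SNARE proteins fuse the closed autophagosome with the lysosome. Glia use the pathway to clear damaged organelles and engulfed debris. Ref(2)P protein is itself degraded by autophagy, so levels of its transcript and its protein need not move together, and all values given here are of transcripts.

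The libraries differed in composition before any single gene was considered. Transcripts of the mitochondrial genome took 32.7% to 51.8% of TPM in uninjured samples, 11.5% to 43.2% at 4 hr and 15.2% to 37.2% at 24 hr. At both times, injured replicates 4 and 5 were the samples of highest mitochondrial share and replicates 1, 2 and 3 those of lowest. The number of genes above 0 was 8440 to 8737 in uninjured samples, 9127 to 9939 at 4 hr and 9075 to 10005 at 24 hr. The median gene tested lay above its uninjured level, by a log2 fold change of 0.31 at 4 hr and 0.51 at 24 hr. These medians were 0.02 and 0.10 once TPM was divided by size factors, which set the typical gene equal between samples. The 8 astrocyte marker genes summed to 50859 to 84423 TPM over the 15 samples, and 13 neuronal markers to 109 to 275 TPM. The 6 hemocyte markers summed to 0 to 0.19 TPM in uninjured samples, 0.17 to 1.27 at 4 hr and 0 to 2.6 at 24 hr, which is higher than uninjured at both times (exact two-sided permutation p = 0.0159 and 0.0476) at levels near 0. Markers of cortex glia (3 genes) summed to 319 to 766 TPM in uninjured samples, 388 to 1819 at 4 hr and 694 to 2246 at 24 hr, and those of ensheathing glia (3 genes) to 187 to 293, 143 to 516 and 321 to 716 TPM. Those of surface glia (4 genes) summed to 33.3 to 51.1, 43.9 to 131 and 41.1 to 100.1 TPM, and 5 testis genes to 0 to 4.82, 4.73 to 11.9 and 3.85 to 12.9 TPM. Photoreceptor markers (5 genes) summed to 45.5 to 72.0, 34.05 to 67.5 and 26.6 to 52.3 TPM in the 3 groups. Fat body markers (5 genes) summed to 18.5 to 33.8, 10.3 to 18.5 and 20.1 to 44.4 TPM, and muscle markers (5 genes) to 0.52 to 4.21, 0.5 to 5.23 and 0.47 to 3.24 TPM. The part of these other cell types in the results below was not tested. In sorted bulk samples, a change in the share of cells that use a gene and a change in its RNA per cell cannot be told apart.

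In uninjured astrocytes the autophagy genes spanned a wide range of levels. *Atg8a*, which encodes the ubiquitin-like protein that coats autophagosomes, was far above the rest at 896 ± 105 TPM (SD, n = 5), or 46.5% of the summed mean TPM of the list. Its lowest uninjured sample (767 TPM) lay above the highest sample of the next gene, *ref(2)P* (196 TPM). *ref(2)P*, the SNARE gene *Snap29* and *Atg18b* also had means above 100 TPM, and the uninjured ranges of these 3 overlapped. A further 16 genes had means between 10 and 100 TPM and 9 between 1 and 10 TPM. *Atg10*, the E2-like enzyme of the Atg12 conjugation, was at 0.138 ± 0.226 TPM (SD, n = 5). This value is uncertain, since 50.13% of the exonic bases of *Atg10* are shared with *Dgk* and *CG12822*. *Atg8b*, the *Atg8* gene known in flies for its use in the male germline, was listed at 0 in all 15 samples. These *Atg10* and *Atg8b* values did not pass the filter of at least 1 TPM in at least 5 samples, which left 29 of 31 autophagy genes and 8101 genes in all for the tests. The 31 genes together had 1929 ± 207 TPM without injury, 2072 ± 119 at 4 hr and 2160 ± 164 at 24 hr (SD of the sum, n = 5). An exact two-sided permutation test against the uninjured sums gave p = 0.214 at 4 hr and p = 0.0873 at 24 hr.

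**Figure D1:**
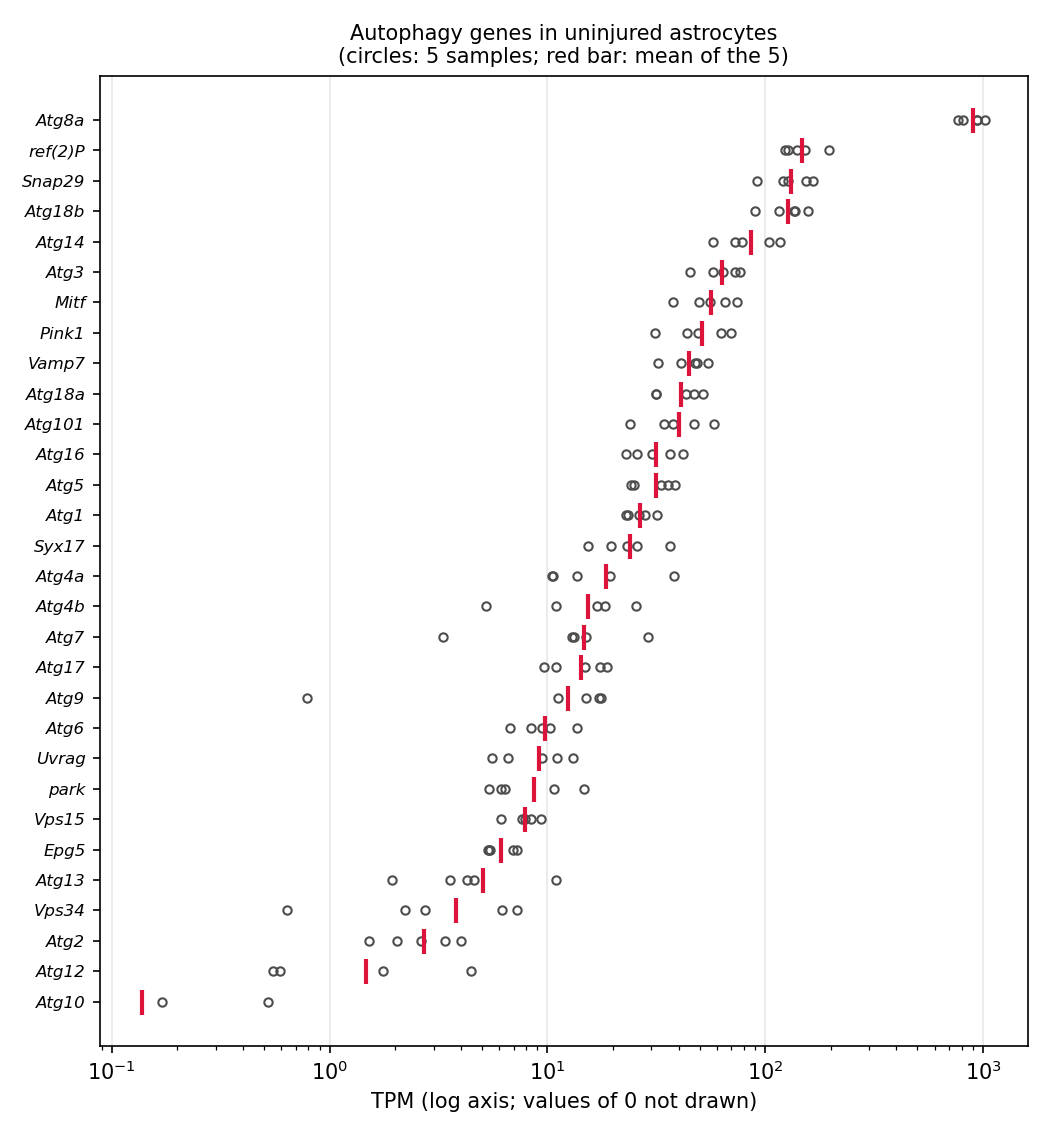
TPM on a log axis for the autophagy genes in the 5 uninjured samples (circles), with the mean as a red bar and genes ordered by that mean. *Atg8a* stands apart at 767 to 1025 TPM and *Atg10* lies at the bottom; *Atg8b* (0 in every sample) and single values of 0 are not drawn.

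The comparison of injured with uninjured astrocytes asks which transcripts changed after TBI. Among the autophagy genes, *ref(2)P* was upregulated at 24 hr, with a mean of 412 ± 126 TPM against 148 ± 29.5 TPM without injury (SD, n = 5 each). No other autophagy gene was called at either time at an adjusted p below 0.01 with a log2 fold change of 1 or more in either direction. The comparisons with uninjured astrocytes share the same 5 control samples. At 4 hr, 0 of 29 genes were called up, against a background of 5.76% of all genes, and 0 were called down, against 0.222%. By limma at an unadjusted p below 0.05, 2 of the 29 genes (*Atg101* and *ref(2)P*) lay above uninjured astrocytes (6.90%, beside 23.0% of all genes). None lay below, beside 4.09% of all genes. At an adjusted p below 0.05 there were 0 of 29, beside 13.2% of all genes. At 24 hr, 1 of 29 was called up against 2.26% of all genes, and 0 down against 0.0617%. Of the 29, 6 (20.7%) had an adjusted p below 0.05, against 19.0% of all genes. These were *Atg17*, *Atg2*, *Atg4b*, *Pink1*, *Vps15* and *ref(2)P*, and their share is close to the background. At an unadjusted p below 0.05, 14 lay above (48.3%, beside 36.5% of all genes) and 1 (*Atg8a*) below, beside 2.73% of all genes. These directions depended on scale, since with size factors 5 lay above and 4 below at 24 hr (14.6% and 12.4% of all genes), and none above and 2 below at 4 hr (14.6% and 11.2%). The median of the 29 genes, as a log2 fold change, was 0.31 at 4 hr and 0.57 at 24 hr, beside 0.31 and 0.51 for all genes tested. Positive fold changes at 24 hr were found for 25 of 29 genes on TPM (79.7% of all genes), 16 of 29 with size factors (55.8%) and 15 of 29 with quantile normalization (48.8%). At 4 hr these counts were 24, 13 and 11, beside 71.1%, 51.7% and 45.6% of all genes. In a fit adjusted for the mitochondrial share of each sample, 17 of 29 were positive at 24 hr (65.2% of all genes). None of the 29 had an adjusted p below 0.05 in it, where 0.876% of all genes did. In that fit the log2 fold changes at 24 hr were 0.44 for *Atg2*, 0.54 for *Vps15*, 0.45 for *Atg17* and 0.17 for *Atg4b*. The mitochondrial share was itself lower on average after injury, at 43.1% without injury, 27.0% at 4 hr and 24.2% at 24 hr. Exact two-sided permutation tests against uninjured samples gave p = 0.0556 at 4 hr and p = 0.0238 at 24 hr. A fit adjusted for the share therefore cannot fully tell it apart from injury.

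On plain TPM, some genes separated the groups sample by sample. At 24 hr, all 5 injured samples lay above all 5 uninjured ones for *ref(2)P*, *Atg2*, *Vps15*, *Vamp7* and *Pink1*. These are 5 of 29 genes (17.2%), where 12.5% of all genes tested did so. The median gene tested was itself 0.51 higher in log2 on TPM at 24 hr. Separation of samples was not counted with size factors. None of the 29 lay wholly below, where 0.518% of all genes did. At 4 hr none of the 29 lay wholly above or wholly below, against 8.68% and 0.839% of all genes.

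**Figure D2:**
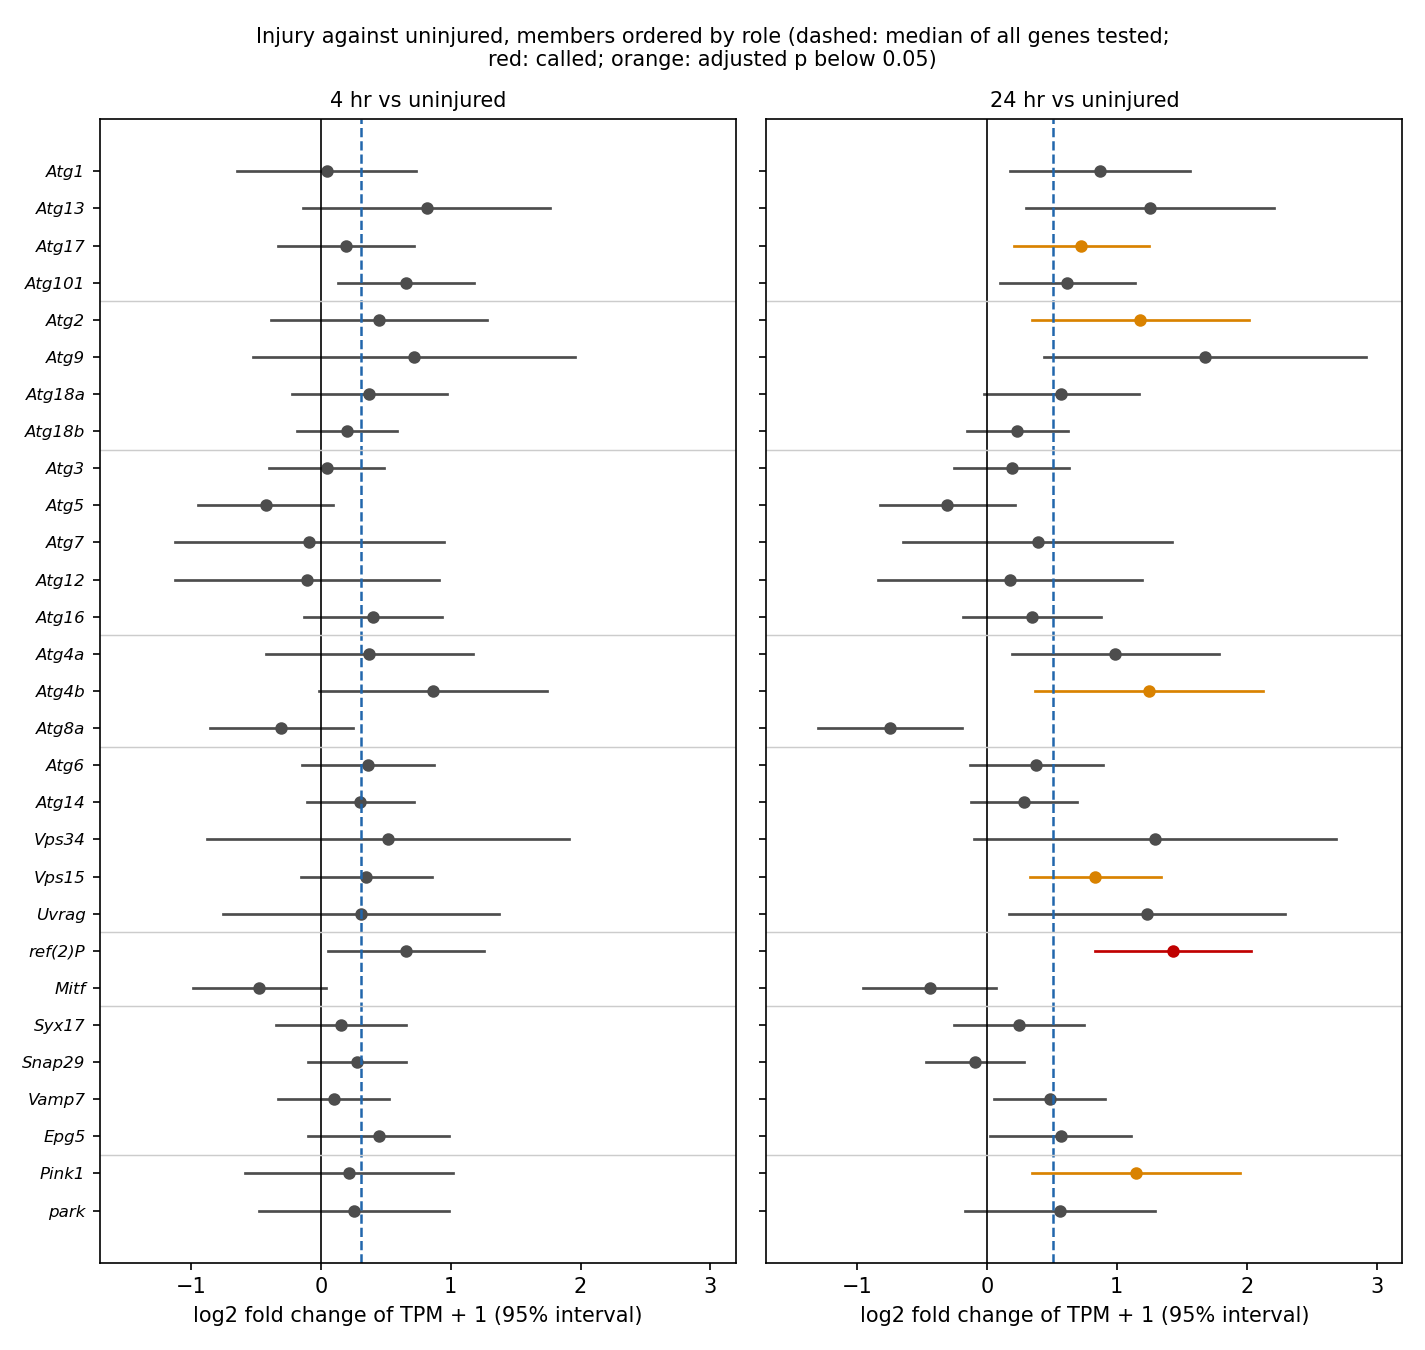
The log2 fold change of TPM + 1 with its 95% interval for 29 autophagy genes at 4 hr (left) and 24 hr (right) against uninjured astrocytes, grouped by role, with the median of all genes as a dashed line. At 24 hr *ref(2)P* (1.44) is the called gene, and *Atg8a* (−0.75) lies farthest below 0.

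The Atg1 initiation complex holds 4 genes, the kinase gene *Atg1* and the genes of its partners *Atg13*, *Atg17* and *Atg101*. *Atg1* (FBgn0260945, dm6 chromosome 3L, 12784429 to 12805116) had 22.9, 23.4, 28.1, 26.4 and 31.8 TPM in uninjured replicates 1 to 5. It had 47.2, 36.2, 24.0, 18.4 and 19.4 TPM in the same order at 4 hr, and 85.4, 82.6, 47.7, 28.8 and 29.0 TPM at 24 hr. Replicates 1 and 2 at 4 hr, and replicates 1, 2 and 3 at 24 hr, exceeded every uninjured sample, while the groups overlapped at both times. In the fit, *Atg1* differed by 0.87 in log2 at 24 hr (limma, standard error 0.33, adjusted p = 0.0667) and 0.04 at 4 hr. Adjusted for the mitochondrial share, the gene differed by 0.02 at 24 hr (limma adjusted p = 0.99) and by −0.68 at 4 hr (adjusted p = 0.104). The scaffold gene *Atg17* ranged from 9.66 to 18.7 TPM in uninjured samples and from 18.4 to 30.2 at 24 hr, with 4 of 5 samples above all uninjured ones and a fold change of 0.73 in log2 (limma adjusted p = 0.0487). *Atg13*, the regulatory subunit, ranged from 1.94 to 11.0 TPM, 2.86 to 16.8 and 8.62 to 17.4 in the 3 groups, and *Atg101*, which stabilizes Atg13, from 23.8 to 58.0, 35.9 to 75.5 and 51.5 to 72.7 TPM. All 4 genes had a positive log2 fold change at 24 hr (0.62 to 1.25), where 79.7% of all genes did. Each had an unadjusted p below 0.05, as 36.5% of all genes did in that direction, and 1 of the 4 had an adjusted p below 0.05. None passed the call. These 4 fold changes kept their sign with size factors, at 0.13 to 0.82.

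Of the genes that supply membrane, *Atg2* (FBgn0044452, chromosome 3L, 2774338 to 2780677), which encodes the lipid transfer protein between the endoplasmic reticulum and the growing membrane, separated the groups at 24 hr. Its uninjured replicates 1 to 5 had 2.04, 2.62, 3.37, 1.52 and 4.00 TPM. The 4 hr replicates had 6.70, 5.34, 4.50, 0.69 and 5.32 TPM and the 24 hr replicates 8.38, 12.2, 6.27, 5.16 and 5.56 TPM. At 4 hr, replicate 4 was the lowest of all 15 samples and the other 4 replicates exceeded every uninjured one. *Atg2* differed by 1.18 in log2 at 24 hr (limma, standard error 0.40, adjusted p = 0.0459) on a scale that understates changes at such low levels. *Atg9*, the scramblase of the vesicles that seed the autophagosome, had the highest log2 fold change of the list at 24 hr, 1.68 (95% interval 0.44 to 2.92, limma adjusted p = 0.0532). That estimate rests in part on uninjured replicate 5, which had 0.79 TPM beside 11.2 to 17.5 in the other uninjured samples, and without it the log2 fold change was 1.05 (limma adjusted p = 0.113). Adjusted for the mitochondrial share it was 0.47 (limma adjusted p = 0.839). *Atg18b*, a relative of the lipid-binding *Atg18a* and among the most abundant genes of the list, had 90.0, 137, 157, 136 and 115 TPM in uninjured replicates 1 to 5. It had 191, 167, 114, 122 and 138 TPM at 4 hr and 145, 155, 170, 131 and 137 TPM at 24 hr, so the 3 groups overlapped throughout. Its log2 fold change of 0.23 at 24 hr had a 95% interval of −0.15 to 0.62. *Atg18a*, whose protein binds the Vps34 product, ranged from 31.5 to 51.6 TPM in uninjured samples and from 45.7 to 74.9 at 24 hr, where it differed by 0.57 in log2 (limma adjusted p = 0.142).

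The conjugation enzymes showed no difference past a test. They comprise the E1-like *Atg7*, the E2-like *Atg3* and *Atg10*, the ubiquitin-like *Atg12* and its partners *Atg5* and *Atg16*. None of the 5 tested genes reached an unadjusted p below 0.05 by limma in any of the 3 comparisons, and their median log2 fold change was −0.09 at 4 hr and 0.19 at 24 hr. *Atg3* ranged from 45.2 to 76.9 TPM in uninjured samples, 50.2 to 73.5 at 4 hr and 52.0 to 93.2 at 24 hr. The 95% interval of its log2 fold change at 24 hr ran from −0.25 to 0.63, and that of *Atg16* from −0.18 to 0.88. *Atg16* ranged from 22.9 to 42.1, 29.3 to 56.5 and 27.2 to 54.2 TPM in the 3 groups, and *Atg5* from 24.1 to 38.5, 12.4 to 32.7 and 21.6 to 30.4 TPM. *Atg5* had the lowest log2 fold change of these genes at 24 hr, −0.30 (95% interval −0.83 to 0.22). The intervals of *Atg7* (−0.65 to 1.43) and *Atg12* (−0.84 to 1.19) were wide, since *Atg12* was at 0 to 4.47 TPM and *Atg7* at 3.32 to 29.0 TPM among the uninjured samples alone.

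*Atg8a* and the protease genes *Atg4a* and *Atg4b*, whose products trim Atg8 and release it from membrane, lay on opposite sides of their uninjured levels at 24 hr. *Atg8a* (FBgn0052672, chromosome X, 10764878 to 10768338) had 933, 767, 1025, 943 and 812 TPM in uninjured replicates 1 to 5. It had 581, 393, 757, 1017 and 1108 TPM at 4 hr, where replicates 1, 2 and 3 were below every uninjured sample and replicate 5 above. At 24 hr it had 373, 416, 512, 771 and 688 TPM, so that 4 of 5 samples lay below the whole uninjured range and replicate 4 just inside it. The mean of 552 ± 172 TPM (SD, n = 5) at 24 hr was 0.616 times the uninjured mean, with a log2 fold change of −0.75 (limma, standard error 0.26, adjusted p = 0.0532), which is not a call. *Atg8a* was at percentile 2.3 of all genes in this comparison. It stayed negative with size factors (−1.25, limma adjusted p = 0.037) and was −0.10 (limma adjusted p = 0.913) in a fit adjusted for the mitochondrial share. *Atg4b* ranged from 5.23 to 25.5 TPM in uninjured samples and from 21.2 to 51.9 at 24 hr, with 4 of 5 above all uninjured ones and a log2 fold change of 1.25 (limma adjusted p = 0.0455). *Atg4a* ranged from 10.4 to 38.3, 10.8 to 38.2 and 24.3 to 47.9 TPM in the 3 groups. It had a log2 fold change of 0.99 at 24 hr (limma adjusted p = 0.0703), and 51.45% of its exonic bases are shared with the opposite-strand gene *CG4629*. No source used here states whether reads were counted by strand, so reads of overlapping genes cannot be told apart, which makes *Atg4a* uncertain.

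In the Vps34 complex, *Vps15* (FBgn0260935, chromosome 3R, 9240757 to 9245869), the regulatory subunit of the lipid kinase, had 6.13, 7.87, 8.39, 9.32 and 7.68 TPM in uninjured replicates 1 to 5. It had 12.6, 11.9, 11.3, 7.65 and 8.60 TPM at 4 hr and 14.2, 18.0, 13.9, 11.4 and 17.0 TPM at 24 hr. At 4 hr, replicates 4 and 5 fell within the uninjured range, and at 24 hr no sample did. *Vps15* differed by 0.83 in log2 at 24 hr (limma, standard error 0.24, adjusted p = 0.028) and by 0.37 with size factors. The catalytic subunit gene *Vps34*, named *Pi3K59F* in the annotation, had 0.64 to 7.24 TPM in uninjured samples and 3.83 to 24.0 at 24 hr, and its spread gave a 95% interval of −0.10 to 2.69. Its log2 fold change was −0.52 after adjustment for the mitochondrial share. *Uvrag*, whose product joins the complex in the endocytic and maturation steps, ranged from 5.57 to 13.1 TPM in uninjured samples, 3.10 to 26.6 at 4 hr and 10.8 to 34.1 at 24 hr, where it differed by 1.23 in log2 (limma adjusted p = 0.086). An antisense RNA, *asRNA:CR44972*, shares 23.81% of the exonic bases of *Uvrag*. *Atg6*, the Beclin gene, and *Atg14*, which directs the complex to autophagy, ranged at 24 hr from 10.9 to 14.7 and from 90.8 to 112 TPM, and neither reached an unadjusted p below 0.05 in any comparison. All 5 genes of the complex had positive log2 fold changes at both times, of which *Atg14* was −0.21 and *Atg6* −0.08 with size factors at 24 hr.

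*ref(2)P* (FBgn0003231, chromosome 2L, 19542468 to 19545548) encodes the fly counterpart of mammalian p62, a receptor that binds ubiquitinated cargo and Atg8. Its uninjured replicates 1 to 5 had 139, 123, 196, 152 and 127 TPM. At 4 hr they had 422, 292, 251, 145 and 143 TPM, so that replicates 1, 2 and 3 were above every uninjured sample and replicates 4 and 5 were inside the range. At 24 hr they had 473, 498, 535, 282 and 271 TPM, all above every uninjured sample, with replicates 4 and 5 again the lowest of their group. *ref(2)P* differed by 1.44 in log2 at 24 hr (limma, standard error 0.29, adjusted p = 0.00612, exact permutation p = 0.00794, the smallest that 5 against 5 samples can give), at percentile 92.1 of all genes. At 4 hr it was 0.66 (95% interval 0.06 to 1.26, limma adjusted p = 0.144). The call at 24 hr was close to the threshold and held in 8 of 15 fits that each left out a single sample. The limma adjusted p was 0.0136, 0.0184, 0.0115 and 0.0162 without uninjured replicates 1, 2, 4 and 5, and 0.0216, 0.0198 and 0.0207 without 24 hr replicates 1, 2 and 3, at log2 fold changes of 1.33 to 1.45. With size factors it was 0.93 (limma adjusted p = 0.019), and adjusted for the mitochondrial share 0.62 (limma adjusted p = 0.168). Removal of mitochondrial transcripts before rescaling left it called (1.03, limma adjusted p = 0.00864). Of its exonic bases, 7.22% are shared with *CG10337* on the other strand.

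*Mitf* (FBgn0263112, chromosome 4, 1198852 to 1224467), the fly relative of mammalian TFEB and a transcription factor of lysosome and autophagy genes, had a negative fold change against uninjured astrocytes at both times. It had 37.7, 49.4, 73.9, 55.5 and 65.1 TPM in uninjured replicates 1 to 5, and 30.7, 35.1, 37.1, 57.0 and 41.0 TPM at 4 hr. At 24 hr it had 27.6, 30.2, 51.2, 50.2 and 48.8 TPM. The groups overlapped at both times, with 3 of 5 samples at 4 hr and 2 of 5 at 24 hr below all uninjured ones. Its log2 fold change was −0.47 at 4 hr (limma adjusted p = 0.223) and −0.44 at 24 hr (95% interval −0.95 to 0.07, limma adjusted p = 0.185).

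The ratio of *ref(2)P* to *Atg8a* within each library does not depend on how samples are scaled. It was 0.149 to 0.192 in uninjured samples, 0.129 to 0.744 at 4 hr and 0.366 to 1.27 at 24 hr. All 5 samples at 24 hr thus exceeded the uninjured range, while the 4 hr samples fell on both sides of it. Replicates 1, 2 and 3 had the higher ratios within each injured group. *ref(2)P* made up 7.65% of the summed mean TPM of the list in uninjured astrocytes and 19.1% at 24 hr, and *Atg8a* 46.5% and 25.6%. A ratio shows unequal change and does not say which of the genes moved. This ratio was formed after the values of both genes had been seen, and it was not tested.

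**Figure D3:**
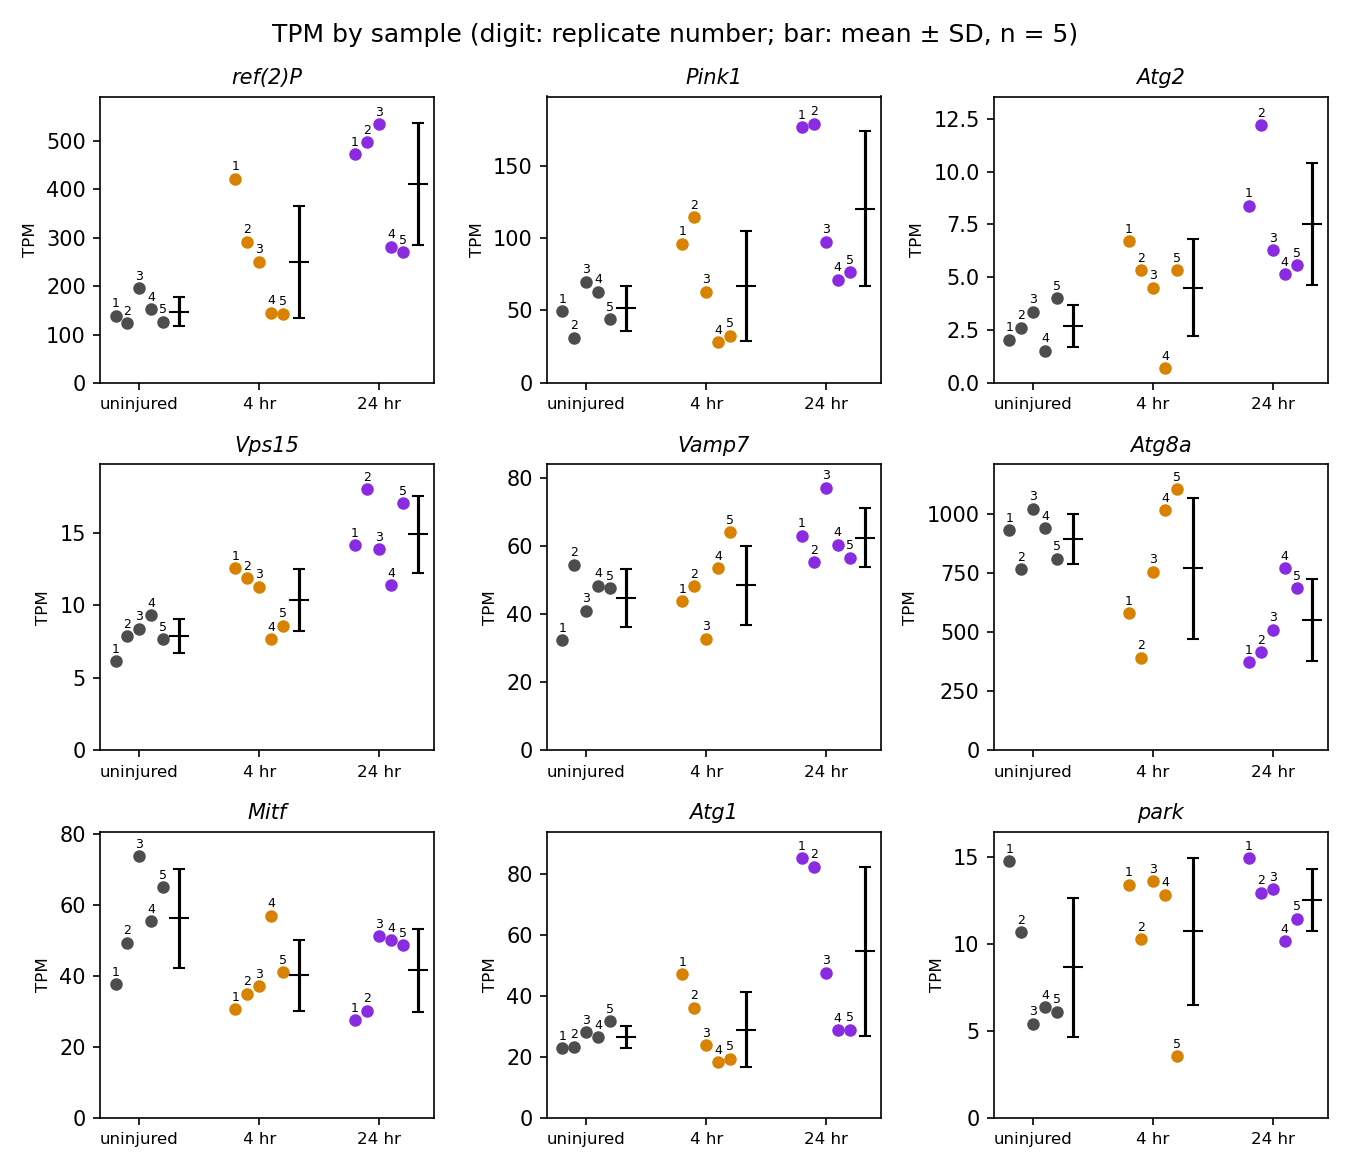
TPM of 9 autophagy genes in every sample, with the replicate number above each point and the mean ± SD (n = 5) as a bar. For *ref(2)P*, *Pink1*, *Atg2*, *Vps15* and *Vamp7* the 24 hr samples lie above all uninjured ones, and for *Atg8a* 4 of 5 lie below.

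The fusion machinery holds the SNARE genes *Syx17*, *Snap29* and *Vamp7* and the tether gene *Epg5*. *Vamp7* (FBgn0266186, chromosome 2R, 9841080 to 9842502) had 32.3, 54.5, 41.0, 48.4 and 47.7 TPM in uninjured replicates 1 to 5, and 43.8, 48.2, 32.8, 53.5 and 64.0 TPM at 4 hr. At 24 hr it had 63.0, 55.2, 77.0, 60.4 and 56.6 TPM. The gap between the groups at 24 hr was narrow, from 54.5 TPM in the highest uninjured sample to 55.2 TPM in the lowest at 24 hr. Its log2 fold change of 0.48 (limma adjusted p = 0.0926) was near the median of all genes and was −0.01 with size factors. *Epg5* ranged from 5.36 to 7.28 TPM in uninjured samples, 7.22 to 11.1 at 4 hr and 5.83 to 12.3 at 24 hr, with 4 of 5 samples above all uninjured ones at each time and a log2 fold change of 0.57 at 24 hr (limma adjusted p = 0.115). *Syx17*, the autophagosomal SNARE, ranged from 15.3 to 36.4 TPM in uninjured samples and 20.9 to 38.3 at 24 hr. *Snap29*, its partner, ranged from 91.3 to 165 TPM in uninjured samples, 138 to 188 at 4 hr and 111 to 150 at 24 hr, with log2 fold changes of 0.28 and −0.09. By limma neither gene reached an unadjusted p below 0.05 in any of the 3 comparisons. For *Snap29*, 4 of 5 samples at 24 hr lay below all those at 4 hr (exact two-sided permutation p = 0.0317, limma adjusted p = 0.275).

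The mitophagy genes *Pink1* and *park* encode a kinase that accumulates on damaged mitochondria and the ubiquitin ligase it activates. *Pink1* (FBgn0029891, chromosome X, 6683798 to 6687302) had 49.3, 31.3, 69.9, 62.9 and 44.0 TPM in uninjured replicates 1 to 5. It had 96.1, 114, 63.0, 28.1 and 32.6 TPM at 4 hr and 176, 179, 97.5, 71.3 and 76.3 TPM at 24 hr. At 4 hr its samples lay on both sides of the uninjured range, and at 24 hr all 5 lay above it, replicates 4 and 5 by a small margin. The mean at 24 hr was 2.33 times the uninjured mean and the log2 fold change 1.15 (limma, standard error 0.38, adjusted p = 0.0448), which is not a call. This value was 0.65 with size factors and −0.04 adjusted for the mitochondrial share. *park* (FBgn0041100, chromosome 3L, 21194754 to 21196853) had 14.8, 10.7, 5.42, 6.37 and 6.12 TPM in uninjured replicates 1 to 5. It had 13.4, 10.3, 13.6, 12.9 and 3.55 TPM at 4 hr and 14.9, 12.96, 13.2, 10.2 and 11.5 TPM at 24 hr, and the groups overlapped at both times. The log2 fold change of *park* at 24 hr was 0.56 (95% interval −0.17 to 1.29). Its value is uncertain, since 65.15% of its exonic bases are shared with *asRNA:CR45951* and *Targ3* on the other strand. *Pink1* shares 10.5% with *CG44303*.

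The comparison of 24 hr with 4 hr tests the difference between the times directly. None of the 29 autophagy genes was called higher, against 0.420% of all genes, or lower, against 1.58%. By limma, 0 of 29 had an adjusted p below 0.05 (4.79% of all genes did). At an unadjusted p below 0.05, none was lower at 24 hr (7.06% of all genes were) and 4 were higher (13.8%, beside 11.97% of all genes). These were *Pink1* (log2 fold change 0.93, limma adjusted p = 0.19), *Atg1* (0.83, 0.173), *ref(2)P* (0.78, 0.137) and *Atg17* (0.53, 0.252). No autophagy gene had all 5 samples of 24 hr above or below all 5 of 4 hr, against 3.47% and 3.63% of all genes. For *ref(2)P* this difference was positive in all 26 alternative fits, with limma adjusted p from 0.00814 to 0.324. It was below 0.05 in 4 of them, which were adjustment for the mitochondrial share (0.00814), removal of mitochondrial transcripts (0.0454), the replicate number as a block (0.0399) and leaving out 4 hr replicate 1 (0.037).

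The autophagy genes followed the libraries as well as the groups. Of the 29 genes, 16, 16 and 11 exceeded every uninjured sample in 4 hr replicates 1, 2 and 3, and 2 and 6 in replicates 4 and 5. At 24 hr these counts were 19, 19 and 14 in replicates 1, 2 and 3, and 6 and 13 in replicates 4 and 5. All genes tested went the same way, with 45.5%, 48.6% and 35.2% above the uninjured samples in 4 hr replicates 1, 2 and 3 and 22.1% and 26.2% in replicates 4 and 5. At 24 hr these shares were 51.4%, 48.4% and 48.5%, and 28.8% and 34.5%. The mitochondrial share was 17.2%, 11.5% and 26.9% in 4 hr replicates 1, 2 and 3, and 43.2% and 36.3% in replicates 4 and 5. At 24 hr it was 15.7%, 15.2% and 19.6%, and 37.2% and 33.4%. In the same order, cortex glia markers summed to 1819, 1478, 978, 388 and 439 TPM at 4 hr. At 24 hr they summed to 2246, 2229, 1221, 770 and 694 TPM. Ensheathing glia markers summed to 516, 469, 218, 152 and 143 TPM at 4 hr, and 716, 567, 617, 321 and 351 at 24 hr. Astrocyte and surface glia markers were also highest in replicates 1, 2 and 3 of both injured groups, and the remaining marker lists were not. The part of these markers was not tested. Within both injured groups, *ref(2)P* and *Pink1* were high and *Atg8a* low where the mitochondrial share was low. Among uninjured samples *Atg8a* went the other way. It was highest (1025 TPM) in replicate 3, of lowest share (32.7%), and lowest (767 TPM) in replicate 2, of highest share (51.8%). The part of the mitochondrial share in the fold changes was not tested beyond the fit adjusted for it, which cannot fully tell the share apart from injury. At 24 hr, replicates 4 and 5 had mitochondrial shares inside the uninjured range and *ref(2)P* levels (282 and 271 TPM) above it. At 4 hr, replicates 4 and 5 also had shares inside that range, with *ref(2)P* levels (145 and 143 TPM) inside the uninjured ones.

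**Figure D4:**
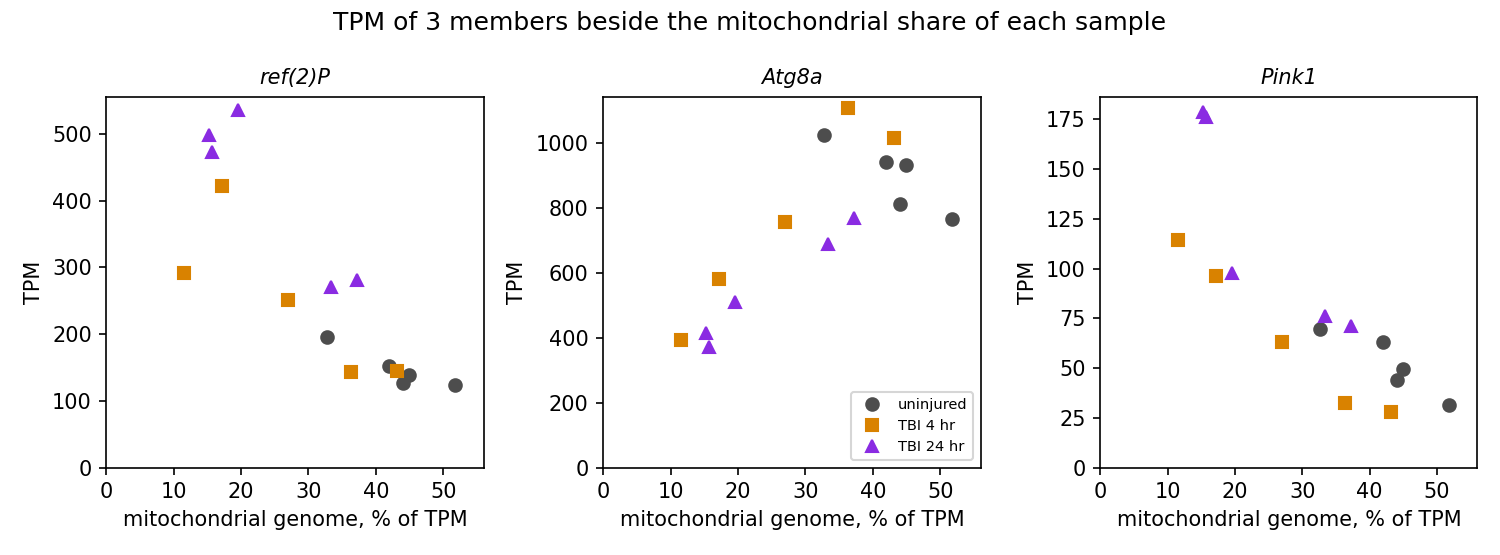
TPM of *ref(2)P*, *Atg8a* and *Pink1* (vertical axes) against the share of TPM from the mitochondrial genome (horizontal axes), with 1 point per sample. At 24 hr, *ref(2)P* is at 271 and 282 TPM in the samples with shares of 33.4% and 37.2%, above the uninjured samples (123 to 196 TPM).

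**Figure D5:**
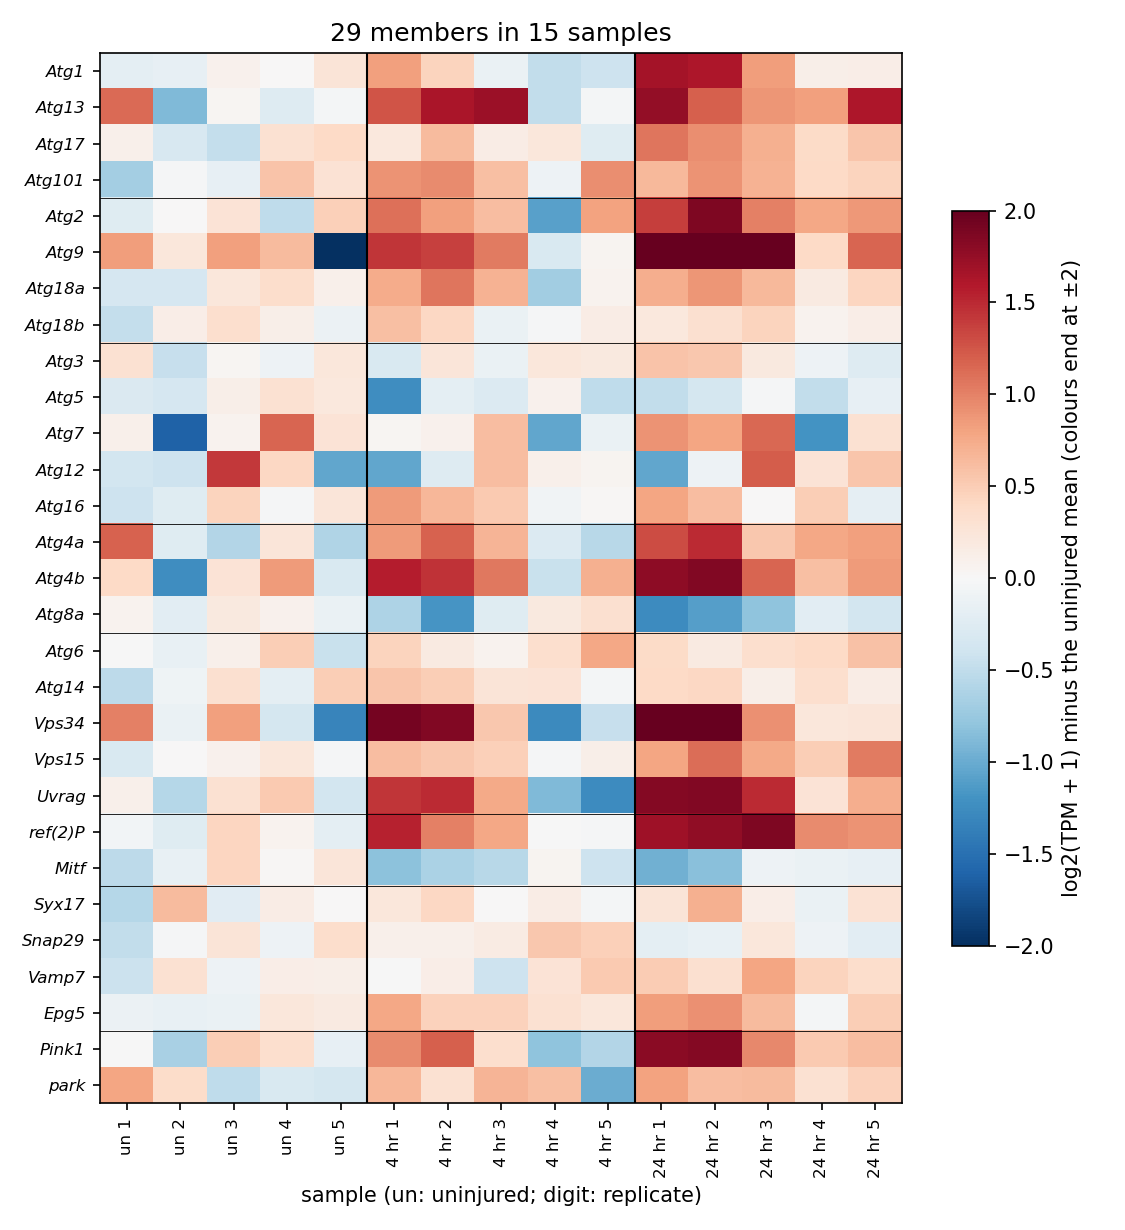
The log2(TPM + 1) of 29 autophagy genes in each sample minus the mean of the 5 uninjured samples, with genes grouped by role; red is higher, blue is lower and colours end at ±2. Replicates 1, 2 and 3 of both injured groups are red for most genes, and *Atg8a* and *Mitf* are blue there.

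Further genes of the pathway were counted in 4 lists of regulators and partners, with 60 genes, all of them tested. At 4 hr, 4 of the 60 (6.67%) were called up and 0 down, beside 5.76% and 0.222% of all genes, and at 24 hr and between the times none was. *Sesn*, a stress-responsive inhibitor of TORC1 and the called gene among 23 genes of nutrient and energy control, had 35.8 ± 11.3 TPM without injury and 147 ± 79.2 TPM at 4 hr (SD, n = 5 each; limma adjusted p = 0.00625). *Rab2*, a small GTPase used in fly autophagosome fusion and the called gene of 16 tethering and fusion partners, had 115 ± 27.3 and 261 ± 53.8 TPM (SD, n = 5; limma adjusted p = 0.000254). *Drp1*, the mitochondrial fission GTPase and the called gene of 13 partners in mitochondrial quality control, had 39.8 ± 8.50 and 128 ± 59.6 TPM (SD, n = 5; limma adjusted p = 0.00416). *stv*, a co-chaperone of chaperone-assisted autophagy and the called gene of 8 other factors, had 5.96 ± 2.44 and 28.5 ± 8.33 TPM (SD, n = 5; limma adjusted p = 0.000236). With size factors *Rab2* was no longer called and *Vps11*, a subunit of the HOPS tether, was called down, whereas *Sesn*, *Drp1* and *stv* were still called. At 4 hr this made 3 of 60 called up and 1 down, beside 326 and 73 of all 8101 genes. At 24 hr the 4 lists had medians of 0.71, 0.73, 0.75 and 0.61 in the same order, beside 0.51 for all genes, and 33 of the 60 genes (55.0%) had higher and 2 lower levels at an unadjusted p below 0.05, as 36.5% and 2.73% of all genes did. With size factors these medians were 0.23, 0.25, 0.27 and 0.12, beside 0.10 for all genes. In that setting 10 of the 60 genes (16.7%) had higher and 7 lower levels at an unadjusted p below 0.05, beside 14.6% and 12.4% of all genes.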

How the data were processed

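Per the labels and the paper's methods, cDNA of sorted astrocytes was made by Smart-seq2 and read as paired ends. Adaptors were removed with Trimmomatic 0.39, reads were aligned to dm6 with HISAT2, counted with HTSeq and tested with DESeq2 1.30.1. The submitters' processing notes also name STAR 2.6.0a, RSEM 1.3.1, FastQC 0.11.7 and R 4.0.0. The authors deposited TPM per gene, and how it was computed is not given in the sources used here. TPM keeps no depth, and read totals of single samples were not used here, so precision comes from the replicates alone.

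Here, genes with at least 1 TPM in at least 5 samples (8101 of 17509) were tested as log2(TPM + 1) with limma 3.58.1 in R 4.3.3, with a variance trend, the 3 groups in a single fit and Benjamini-Hochberg adjustment over all of them. DESeq2 was not run, since TPM is not counts. Calls took the study's thresholds, a log2 fold change of 1 or more in either direction with an adjusted p below 0.01. For single values, exact permutation tests (two-sided) compared 5 samples with 5. The fit was run on simulated data with independent noise per gene. That simulation held no differences in scale or mitochondrial share between libraries, so it does not bear on those. Python 3.11.15 with pandas 2.3.3, SciPy 1.17.1, NumPy 2.4.6 and, for figures, matplotlib 3.10.9 was used for the rest. The BDGP6 annotation of dm6 gave gene positions and exons.

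The autophagy genes, the lists of partners and the markers were chosen with earlier results of these data known. All 31 genes are named. TPM of every sample is given for genes called in any comparison, genes whose injured and uninjured samples do not overlap, the 3 genes of highest mean TPM, and *Atg1*, *Atg8a*, *Atg8b*, *ref(2)P*, *Mitf*, *Pink1* and *park*. The others are given by ranges, intervals and counts, and genes of the 4 lists of partners are named where called. Alternatives were no filter, a filter at 5 TPM, a pseudocount of 0.1, fits of only the groups compared, no variance trend, size factors, quantile normalization, removal of mitochondrial transcripts, adjustment for the mitochondrial share, sample weights, the replicate number as a block, an adjusted p below 0.05, no fold limit, and leaving out each sample in turn. A planned search of promoters for motifs was not run, and sequences were not analysed here.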

Additional observations from a re-analysis of the deposited data

Results flagged for a closer look

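*Snap29*, a SNARE gene of autophagosome fusion, had 150 TPM in 24 hr replicate 3, apart from the other 4 samples of its group at 111 to 119 TPM. The gap to the nearest sample was 0.782 of the group's range, above Dixon's critical value of 0.71 for 5 samples. It was the single such case among 87 groups of 5 samples (29 genes in 3 groups), where chance alone flags about 1 in 20.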

How the results depend on the processing

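At 24 hr, the count of autophagy genes called fell from 1 to 0 with no filter, with no variance trend, with size factors, with quantile normalization and with adjustment for the mitochondrial share. With the threshold at an adjusted p below 0.05, 4 of 29 were called up (*ref(2)P*, *Atg2*, *Atg4b* and *Pink1*), beside 1076 of all 8101 genes. Leaving out single samples gave 0 to 1 calls. At 4 hr and between the times, the count was 0 in every alternative. Over all alternatives, including each sample left out, the sign of the log2 fold change turned at least once for 24 of 29 genes at 4 hr, 16 at 24 hr and 13 between the times. Among genes with an unadjusted p below 0.05 on TPM, signs turned for *ref(2)P* at 4 hr (−0.038), *Uvrag* at 24 hr (−0.24) and *Pink1* at 24 hr (−0.036) after adjustment for the mitochondrial share. They also turned at 24 hr for *Vamp7* with size factors (−0.012) and for *Epg5* with quantile normalization (−0.053). The cause was not tested. With size factors the median of the autophagy genes was −0.03 at 4 hr and 0.10 at 24 hr, beside 0.02 and 0.10 for all genes, and the all-gene calls at 24 hr were 50 up and 22 down in place of 183 and 5. TPM without depth limits every interval given to the spread between replicates.

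With the replicate number as a block, the count of autophagy genes called was 0 at 4 hr, 1 at 24 hr and 0 between the times, and 584 of all genes were called up at 24 hr in place of 183. The replicate numbers follow the sample titles, and the submitters' own labels number the uninjured and 24 hr samples otherwise, so a shared number is not known to pair samples. Correlations of same-numbered samples ran from −0.04 to 0.21 between uninjured and injured samples. Between 4 hr and 24 hr samples they ran from −0.02 to 0.54. The 4 hr replicates 1 to 5 correlated best with 24 hr replicates 2, 1, 4, 5 and 5, so mostly not with the same number. Whether same-numbered injured samples share a source of variation was not tested.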

Other observations

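In the fit adjusted for the mitochondrial share, levels at 24 hr were above those at 4 hr for *Pink1* by a log2 fold change of 0.75 (limma adjusted p = 0.00464), for *ref(2)P* by 0.66 (limma adjusted p = 0.00814) and for *Atg1* by 0.70 (limma adjusted p = 0.0401). These were the 3 of 29 autophagy genes with an adjusted p below 0.05 between the times in that fit, where 9.25% of all genes had one. All 3 are under the fold limit of a call. In that fit *Pink1* at 4 hr lay 0.79 below uninjured astrocytes on the log2 scale (a log2 fold change of −0.79, limma adjusted p = 0.0127), where its plain log2 fold change was 0.22. *Pink1* was the 1 of 29 with an adjusted p below 0.05 at 4 hr in that fit, beside 8.73% of all genes. The ratio of *Pink1* to *park* within each library was 2.92 to 12.9 in uninjured samples, 2.19 to 11.1 at 4 hr and 6.65 to 13.8 at 24 hr, and the groups overlapped.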
